A study of Mus musculus with 4 samples.

Results

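Oas3, Oasl2, Isg15 and Bst2 are genes that cells switch on in answer to interferon. They are described here by the ribosome footprints on their 5' untranslated region (5' UTR, the leader ahead of the main start codon) and on their coding region. The genes were taken by name, 4 of the 4878 in the footprint table, and were chosen by their higher coding footprints in the knockdown libraries of this same comparison. Their changes are therefore given as a description with no test.

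The cells were mouse embryonic fibroblasts, connective tissue cells grown from embryos, at passages 5 to 8 per the labels. All of them received small interfering RNA (siRNA) with the lipid reagent Lipofectamine RNAimax, so the controls carry transfected double-stranded RNA too. The control group had the siRNA labelled Si-Negative control, and the knockdown group had Si-eIF1A (X+18), directed against the initiation factor eIF1A, which takes part in scanning and start codon choice. Each group held 2 libraries, and nothing in the labels says that they came from separate cultures, so the spread between them may be technical. The knockdown itself was not checked, because Eif1ax and Eif1a, which encode eIF1A in the mouse, were not analysed here. RNA levels were not used, so more footprints on a gene can mean more mRNA or more ribosomes on each mRNA. In these bulk samples, a change in the number of cells making an mRNA cannot be told apart from a change in each cell.

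Interferons are secreted proteins that act through receptors on the cell surface and the JAK and STAT proteins, and they raise the transcription of many antiviral genes. In fibroblasts, this programme can be set off by double-stranded RNA in the cytoplasm, which is bound by sensors such as the RIG-I family, the kinase PKR and the oligoadenylate synthetases. Many of the genes carry an interferon-stimulated response element ahead of their start, a repeat of GAAA bound by the complex of STAT proteins with Irf9.

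Values are given below in the order replicate 1, replicate 2 of each group. Summed over leaders and coding regions, the controls had 617663 and 547916 reads on the genes of the table, and the knockdown libraries 458191 and 280649. Leaders took 11.6% and 13.7% of these reads with control siRNA and 20.0% and 32.4% with eIF1A siRNA, so knockdown replicate 2 combined the fewest reads with the largest leader share. Of 16 fibroblast markers 6 were in the table, with summed normalized coding reads of 5100 and 6455 in the controls and 3935 and 3175 in the knockdown libraries. Among those 6, S100a4, Fbln1 and P4hb were lower by limma, as were 18.7% of all genes tested. Fn1, Loxl1 and Vim did not pass, with log2 changes of -0.74, 0.06 and 0.38. Fn1 alone held 3032 and 4881 of the summed reads in the controls, and 2209 and 2399 in the knockdown libraries. Leukocyte and endothelial markers were not analysed here. The part of depth and cell state in the results below was not tested.

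The windows around the gene starts were searched first, because the response element is a known feature of interferon-stimulated genes. RefSeq windows on GRCm38.p6, the mm10 build, from 250 bases before to 50 bases after the annotated start, were available for all 4 genes. The start is that of the transcript behind each window. Oas3, with 2 RefSeq transcripts, and Oasl2, with 4, had 1 window each. The start used for Oas3 lies inside the span of its gene, so distances given for Oas3 hold for that transcript only. The motif searched was GAAA, any 2 bases, then GAAA again, on either strand and with overlaps allowed. Oas3 held 1 match, Isg15 held 3 and Bst2 held 2, while the Oasl2 window held none of these letters. The matching stretches are printed 5′ to 3′ on the strand of the gene, with the matched bases in capitals.
Oas3: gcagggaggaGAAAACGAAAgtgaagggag
Isg15: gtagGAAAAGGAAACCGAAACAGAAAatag
Bst2: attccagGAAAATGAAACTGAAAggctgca
These 30-base stretches lie on the minus strand at chr5:120777715-120777744, chr4:156200871-156200900 and chr8:71537580-71537609. The matches begin 75 bases before the start in Oas3, 78 in Isg15 and 130 in Bst2. In Isg15 the 3 matches overlap into a run from 78 to 57 bases before the start, and in Bst2 the 2 matches run from 130 to 115 bases before it. Over all RefSeq windows of this length, 1131 of 32851 (3.44%) held the motif, and 133 of the 4003 footprint genes with a window did (3.32%). The motif for a STAT dimer, TTCNNNGAA, reads the same on both strands and was found in 8.30% of all windows. Among the 4 genes it was found in Bst2 alone, at 136 to 128 bases before the start, where it overlaps the first match of the other motif. A match describes the letters and does not show that a factor was bound.

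**Figure D1:**
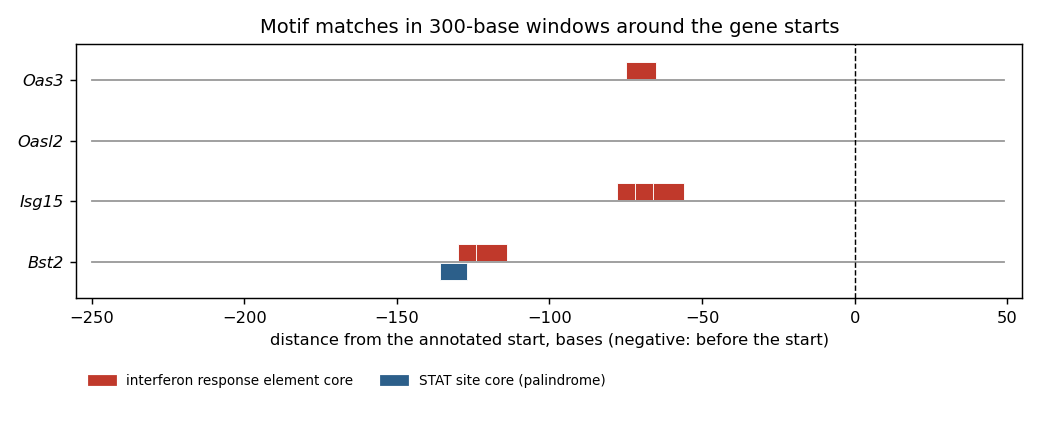
Motif matches in the 300-base windows of the 4 genes, by distance in bases from the annotated start (dashed line), with the paired GAAA motif in red and TTCNNNGAA in blue. Oas3 and Isg15 carry red matches that begin 75 and 78 bases before the start, those of Bst2 begin at 130, and the Oasl2 line is empty.

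Coding footprints of all 4 genes were higher in the knockdown libraries. In 4 of 4 cases neither knockdown library fell within the range of the controls, and 26.0% of the 4619 genes tested were likewise separated upwards. The log2 change, knockdown minus control on log2 of the normalized reads plus 1, was 2.60 for Oas3, 1.81 for Bst2, 1.39 for Isg15 and 1.27 for Oasl2, against a median of -0.16 over all genes tested. By limma's test with Benjamini-Hochberg adjustment, 10.6% of the genes tested were higher and 18.7% lower. Since the choice of the 4 genes used this contrast, nothing is read from their count. The sizes of their changes ranked 21st, 116th, 266th and 346th from the highest in the same order. The rank of Oas3 is limited further by its low control reads, as described below. Normalized reads are not divided by length here, so levels are compared between libraries and not between genes.

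Oas3 makes short oligoadenylates, a signal of infection, when it binds double-stranded RNA, and it spans chromosome 5, 120753098 to 120777684. On its coding region the controls had 2.87 and 6.05 normalized reads, and the knockdown libraries had 34.6 and 27.1. These values stand for 4, 7, 34 and 17 reads. The lower knockdown library was 4.48 times the higher control, so the groups did not overlap although the controls differed 2.11-fold. The mean went from 4.46 ± 2.25 to 30.9 ± 5.26 (SD, n = 2), and the log2 change was 2.60 ± 0.54 (SE). With the reads of each group summed and divided by the depth, the knockdown level was 7.35 times the control, with a 95% exact interval of 3.78 to 15.6 that covers counting error only. Oas3 was the least covered of the 4 genes and had the largest change. No gene of the table had fewer than 26 reads over both regions in its highest library. Oas3 reached 26 only in knockdown replicate 1, with 35 reads, beside 18 in knockdown replicate 2 and 5 and 8 in the controls. Its control mean of 4.46 lies below the minimum mean for testing, which it passed through its knockdown reads. A gene this low in the controls appears here only if it rose, so nothing is read from the size and rank of its change. With a pseudocount of 5 the log2 change of Oas3 was 1.94.

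Oasl2, an oligoadenylate synthetase-like protein with ubiquitin-like repeats, lies 5.84 Mb from Oas3 on chromosome 5, from 114896926 to 114912245. Coding reads, normalized, were 45.1 and 50.1 under control siRNA, then 147 and 90.98 under eIF1A siRNA. The lower knockdown library was 1.81 times the higher control. The knockdown libraries differed 1.62-fold from each other, more than the controls did (1.11-fold). In reads, knockdown replicate 2 had 57, beside 63 and 58 in the controls, so its higher normalized value rests on the scaling for its smaller depth. Per 1000000 coding reads of the table's genes, Oasl2 had 115 and 123 with control siRNA and 395 and 301 with eIF1A siRNA, with the same order. The mean went from 47.6 ± 3.53 to 119 ± 39.9 (SD, n = 2), a log2 change of 1.27 ± 0.32 (SE). The ratio of summed reads per depth was 2.65, with a counting interval of 2.10 to 3.34.

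Isg15 encodes a ubiquitin-like protein that is attached to other proteins and is also secreted. Its gene spans chromosome 4, 156199424 to 156200818, and overlaps the long noncoding gene Gm46878, whose reads cannot be told apart from those of Isg15 if strand was not used. Control libraries had 31.5 and 34.6 normalized coding reads, and knockdown libraries 122 and 63.8. The lower knockdown library was 1.85 times the higher control, and the knockdown libraries differed 1.91-fold from each other. The reads behind these values were 44 and 40 in the controls and 120 and 40 in the knockdown libraries. Knockdown replicate 2 therefore equalled a control in reads and exceeded it only after scaling, as with Oasl2. Per 1000000 coding reads of the table's genes, Isg15 had 80.6 and 84.6 with control siRNA and 327 and 211 with eIF1A siRNA. The mean went from 33.0 ± 2.15 to 92.9 ± 41.2 (SD, n = 2), a log2 change of 1.39 ± 0.35 (SE). The change was 0.93 without knockdown replicate 1 and 1.85 without knockdown replicate 2. The ratio of summed reads per depth was 3.02, with a counting interval of 2.31 to 3.98.

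Bst2, also called tetherin, is a membrane protein that holds budding viruses on the cell surface, and its gene spans chromosome 8, 71534255 to 71537472. Normalized coding reads of Bst2 were 70.2 and 102 in the controls, then 292 and 306 in the knockdown libraries. The knockdown libraries differed 1.05-fold in normalized coding reads, the smallest difference between replicates among the 4 genes on this scale. The lower knockdown library was 2.86 times the higher control. Per 1000000 coding reads of the table's genes, Bst2 had 179 and 250 with control siRNA and 782 and 1012 with eIF1A siRNA. On that scale the knockdown libraries of Oas3 lay closer to each other, at 92.7 and 89.6. Bst2 also exceeded both controls in reads, with 287 and 192 in the knockdown libraries against 98 and 118. The mean went from 86.1 ± 22.5 to 299 ± 10.3 (SD, n = 2), a log2 change of 1.81 ± 0.30 (SE). The ratio of summed reads per depth was 3.52, with a counting interval of 2.99 to 4.15, the narrowest of the 4 relative to its size.

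**Figure D2:**
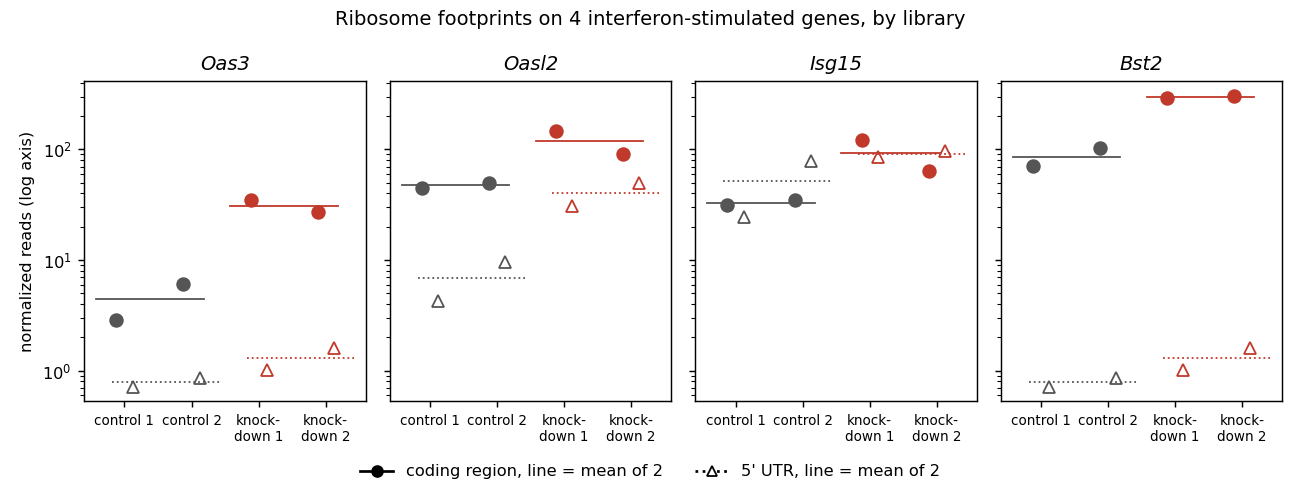
Normalized reads on a log axis in each of the 4 libraries, with filled dots for the coding region, open triangles for the 5' UTR and lines for the means of 2 libraries (grey, control siRNA; red, eIF1A siRNA). Coding reads of Bst2 lie at 70.2 and 102 in the controls and at 292 and 306 in the knockdown libraries, while its 5' UTR stays at 1 read, the table's lowest value, in all 4.

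The leaders of the 4 genes did not follow 1 pattern. Oas3 and Bst2 stood at the table's lowest value, 1 read, in the leader of all 4 libraries. No column holds a 0, and the labels and headers do not say whether 1 read stands for 0, for 1 or for an added read. Their apparent leader values of 0.717 to 1.60 normalized reads differ by the scaling alone, and no change is given. With the 1 taken as a read, Bst2 had 1 leader read beside 287 coding reads in knockdown replicate 1. That is a leader share of 0.347% (95% Wilson interval 0.0613 to 1.94%). The median gene had a leader share of 15.1% in that library. The share and interval of Bst2 do not hold if the 1 stands for 0 or for an added read. Of all 4878 genes, 859 (17.6%) were at 1 leader read in all 4 libraries, and 288 of the 1858 genes with a mean of at least 50 coding reads were (15.5%).

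The first ATG after the annotated start came 35 bases downstream in Oas3 and 45 bases downstream in Bst2, while the Isg15 and Oasl2 windows held none in their 50 bases. Whether these are the start codons used was not tested. Among footprint genes with a single RefSeq window, 342 of 919 with an ATG in these 50 bases were at 1 leader read in all 4 libraries (37.2%), against 281 of 2243 without (12.5%).

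The Oasl2 leader held 4.30 and 9.51 normalized reads in the controls and 30.5 and 49.5 in the knockdown libraries. These values are 6 and 11 reads against 30 and 31, so the leader was higher in reads as well. The groups did not overlap, and 67.4% of the 2101 genes tested for leaders were likewise separated upwards. The log2 change was 2.42 ± 0.55 (SE), beside a median of 1.09 over all genes tested, and 10.0% of them had a larger one. The log2 change stayed above 0 in all 15 alternatives that could be computed, with a lowest value of 1.39 under TMM factors and under DESeq2. Without control replicate 1 it was 1.92. The leader share of Oasl2 was 8.70% and 15.9% in the controls, then 17.1% and 35.2% in the knockdown libraries. The medians over all genes were 7.69% and 10.0%, then 15.1% and 27.3%, so Oasl2 lay above the median in each library. Its 95% Wilson interval held the median in each, at 4.05 to 17.7% and 9.14 to 26.3%, then 12.3 to 23.4% and 26.1 to 45.6%. The log2 change of its ratio of leader to coding reads was 1.15 ± 0.78 (SE), near the median of 1.23 over the 1907 genes tested. The ratio was separated upwards, as in 63.9% of those genes, and 19.4% passed the limma threshold upwards.

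Isg15 carried a larger part of its footprints in the leader than most genes did, in both groups. The leader held 34 and 91 reads in the controls and 84 and 61 in the knockdown libraries, beside 44, 40, 120 and 40 coding reads. Its leader share was 43.6% (95% Wilson interval 33.1 to 54.6%) and 69.5% (61.1 to 76.7%) in the controls, and 41.2% (34.6 to 48.0%) and 60.4% (50.6 to 69.4%) in the knockdown libraries. In control replicates 1 and 2, 89.2% and 95.6% of genes had a lower share. The same figures were 79.2% and 80.3% in knockdown replicates 1 and 2. Replicates of a group differed more than the groups did, and in both groups replicate 2 had the higher share. The replicate numbers carry no stated pairing.

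In normalized reads the Isg15 leader held 24.4 and 78.7 in the controls and 85.4 and 97.4 in the knockdown libraries. The controls thus differed 3.23-fold, and the lower knockdown library was only 1.09 times the higher control. The log2 change was 1.04 ± 0.47 (SE), close to the median of 1.09 over all genes, and it was -0.06 with TMM factors, -0.20 with edgeR and -0.23 with DESeq2, which centre the leader changes of all genes. It was 0.21 without control replicate 1 and 1.86 without control replicate 2. The ratio of leader to coding reads changed by -0.36 ± 0.80 (SE) on the log2 scale with overlapping groups, and 95.5% of the 1907 genes tested had a higher value. Its replicate SD was 0.94, larger than the change.

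**Figure D3:**
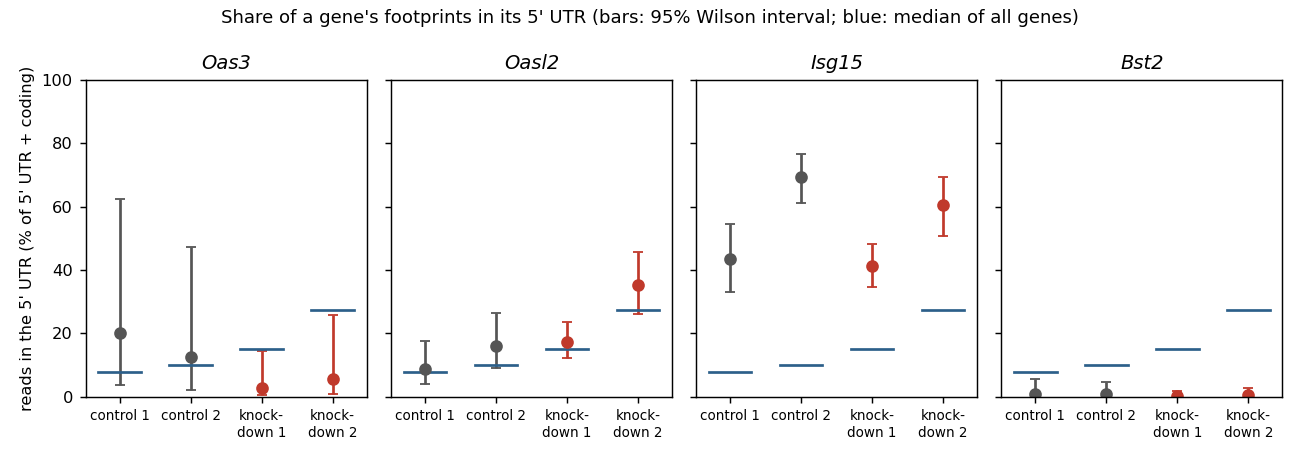
Reads in the 5' UTR as a percentage of a gene's 5' UTR and coding reads, for each gene and library, with 95% Wilson intervals that cover counting error only; blue lines give the median of all genes. Isg15 lies above the median in each library, at 43.6% and 69.5% in the controls. Bst2 lies at or below 1.01%, with its leader at the table's lowest value of 1 read.

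Across the 4 libraries, the likeness of the 4 genes to each other and to other genes was measured as the Euclidean distance between log2 coding values, each gene centred on its mean over the 4 libraries, and it is a description. Unnamed gene models and pseudogenes were left out of the rankings by distance. Isg15 and Oasl2 were at a distance of 0.21. Oasl2 was the fifth closest of the remaining tested genes to Isg15, and Isg15 was the 16th closest to Oasl2. Oas3 was 1.45 from Oasl2 and 1.38 from Isg15, and Bst2 was 0.81 to 0.87 from the other 3. The closest genes to Oasl2 were Cldnd1, Exosc2, Ybx1, Rtp4 and Dnaaf5, at distances of 0.059 to 0.15, and Rtp4 is itself interferon-stimulated. For Isg15 they were Exosc2, Ybx1, Gng12, H3f3b and Oasl2 (0.10 to 0.21). For Oas3 they were Ptgs2, Hspe1, Pop1, Pno1 and Mdn1 (0.18 to 0.50). For Bst2 they were Ddias, Rpl36a, Urb1, Hnrnpdl and Utp20 (0.080 to 0.21).

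Other interferon-stimulated genes rose in part. Leaving out the 4, the 4 lists of such genes held 108 names. Of these genes, only the 40 in the table could be tested in coding footprints. Among the 40, 13 were higher, 1 was lower and 26 did not pass (limma, threshold 0.05), with a median log2 change of 0.43. The background was 10.6% higher and a median of -0.16. Of the oligoadenylate pathway, Oas1a, another oligoadenylate synthetase, rose from 5.73 and 1.73 normalized coding reads in the controls to 28.5 and 17.6 (n = 2, log2 2.45, limma adjusted p = 0.0101). Pde12, which degrades oligoadenylates, rose by 1.27 on the log2 scale (limma adjusted p = 0.02). Pde12 was listed for its place in this pathway and counts among the 13, and its induction by interferon was not checked. Oas1a reads may be shared with its near-identical neighbours. In the pathway of Isg15, the conjugating enzyme Ube2l6 rose by 1.56 and the deconjugating protease Usp18 by 1.15 (limma adjusted p = 0.0203 and 0.0286), while the ligase Trim25 stood at -0.17 on that scale (limma adjusted p = 0.715). Beside Bst2, Ifit1, which binds foreign RNA ends, rose by 1.33 (limma adjusted p = 0.0094). Pnpt1, an RNA exonuclease, rose by 1.72 and Cnp fell by 1.84. In leaders, Usp18 rose like its coding region, from 6.90 ± 3.68 to 48.3 ± 10.7 normalized reads (n = 2, limma adjusted p = 1.24e-05), where 44.0% of all leaders tested were higher by limma.

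The calls of these 40 genes rested on both controls. All 13 higher genes kept their sign without control replicate 1 and without control replicate 2, but 0 of the 40 passed the limma threshold upwards in either case (7 and 11 at an unadjusted p under 0.05). By construction, those fits take the spread between replicates from the knockdown pair alone. The 13 were picked as higher in these same libraries, so their kept sign adds no support. The paired GAAA motif was found in 3 of the 7 other stimulated genes with a window that were higher (42.9%), namely Oas1a, Ifit1 and Ogfr. It was found in 8 of the 24 that were not (33.3%).

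Genes that act before the 4 were called higher about as often as genes in general (9.38% of those tested). The lists for sensing, sensor signalling, interferon receptors and JAK-STAT factors held 79 names, and 32 of these genes were tested. Of the 32, 3 were higher and 3 lower, with a median log2 change of -0.18, beside 10.6% higher and 18.7% lower over all genes. Dhx58, a RIG-I family helicase, rose by 1.59 (limma adjusted p = 0.00963). The others that were higher, Ifi204 and Usp18, are also among the 13 stimulated genes above. Dhx58 was placed on the sensor list alone, a choice of the listing that does not set it apart from interferon-stimulated genes. Ifnar1, a chain of the type I interferon receptor, fell from 50.8 ± 3.95 to 17.9 ± 0.53 normalized reads (n = 2, limma adjusted p = 0.00638). Stat3 and Jak2 each fell by 1.92 on the log2 scale. Stat2 (-0.23, limma adjusted p = 0.597) and Irf9 (0.61, limma adjusted p = 0.172), parts of the complex that binds the response element, did not pass, nor did the RNA editor Adar (0.17, limma adjusted p = 0.729). Interferon genes were not analysed here. The median log2 change of these 32 genes was -0.48 without knockdown replicate 1, beside -0.32 over all genes. Without knockdown replicate 2 it was 0.205, beside -0.01 over all genes. Without control replicate 1, 0 of the 32 were higher and 1 was lower by limma (2 and 4 at an unadjusted p under 0.05), and without control replicate 2, 0 were higher and 0 lower (2 and 2).

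In related lists, again beside 10.6% higher over all genes, 3 of 13 tested genes of antigen presentation on MHC class I were higher, namely H2-D1 (2.52), H2-K1 (1.36) and Psmb10 (1.32), where reads of H2 genes may be shared between near-identical copies. Of 7 NF-kB and cytokine genes 2 were higher, Ptgs2 (2.54) and Csf1 (1.13).

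**Figure D4:**
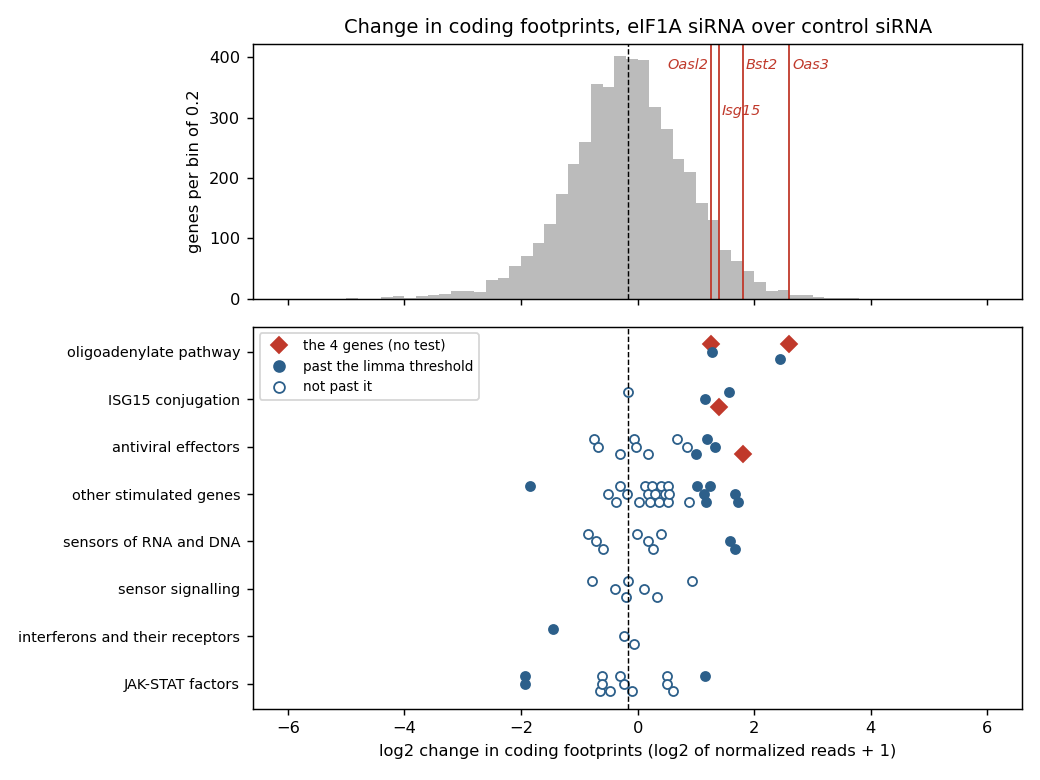
Top, number of genes per bin of log2 change in coding footprints for the 4619 genes tested, with red lines at the 4 genes and a dashed line at the median of -0.16. Bottom, the same change for each tested gene of 8 lists, with red diamonds for the 4 genes and filled circles for others past the limma threshold; Oas3 lies at 2.60 and Oasl2 at 1.27.

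Coding changes of the 4 genes kept their direction in each alternative that could be computed, 15 for Oas3 and 16 for the others. The 4 were chosen for higher coding reads in this contrast, and their groups did not overlap. Leaving out 1 library could therefore not reverse a change, and the kept direction adds no support. The changes ranged from 1.94 to 3.03 for Oas3, 0.92 to 1.61 for Oasl2, 0.93 to 1.85 for Isg15 and 1.54 to 2.08 for Bst2. Relative to the median of all genes under the same setting, which shifted from -0.16 to 0.01 with TMM factors, the lowest differences were 2.08, 1.24, 1.25 and 1.65 in that order.

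**Figure D5:**
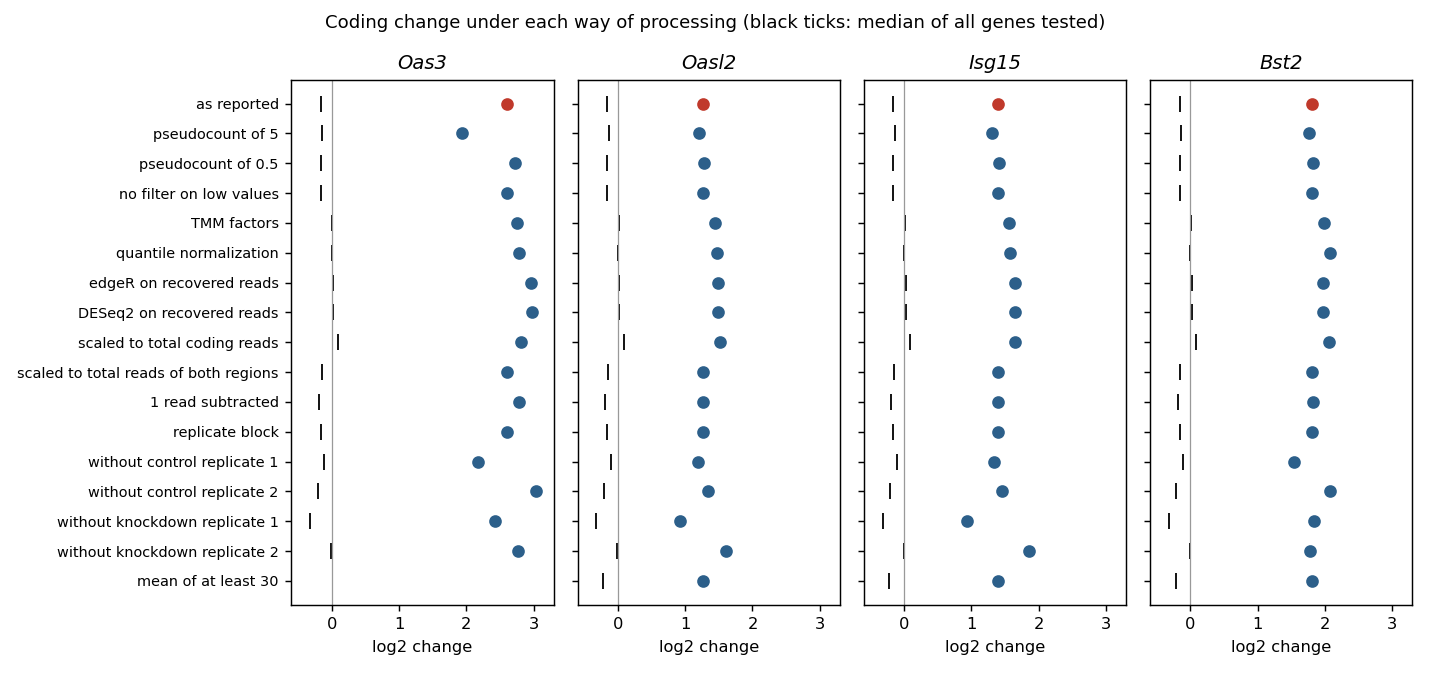
Log2 change in coding reads of each gene under the processing reported (red) and under each alternative (blue), with black ticks at the median of all genes tested in that setting. Each blue dot lies to the right of its tick, with the lowest at 0.92 for Oasl2 without knockdown replicate 1.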

How the data were processed

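Cutadapt, Bowtie, TopHat2, HTSeq and DESeq2 were used on the mm10 build per the submitters' processing notes, which give no role, order or version. Per the file headers, the authors deposited a normalized signal for the 5' UTR and the coding region of each gene. Dividing each library's values by its smallest step gave whole reads for 100% of them (tolerance 0.001 reads).

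The log2 of normalized reads plus a pseudocount of 1 was fitted with limma 3.58.1 in R 4.3.3 (empirical Bayes with trend, Benjamini-Hochberg over all genes tested, threshold 0.05), for genes with a mean of at least 10. Of the 4 genes, all passed this filter for coding reads, and Oasl2 and Isg15 passed it for leaders. On the recovered reads, edgeR 4.0.16 (quasi-likelihood) called 900 genes higher and 812 lower in coding reads. DESeq2 1.42.0 was a further alternative. An exact two-sided permutation p cannot go below 0.333 with 2 libraries a group.

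The 4 genes and the lists were chosen with earlier results of these data known. Counts of called genes on the interferon-stimulated lists leave out the 4. Genes named beside the 4 are up to 6 per list with the smallest adjusted p, genes of the pathway fixed by name, and the 5 most alike per member. Of the epithelial, neuronal and muscle markers, Dsp and Map2 were in the table. Map2 was lower by limma and Dsp did not pass.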

Additional observations from a re-analysis of the deposited data

How the results depend on the processing

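With 2 libraries a group, limma's p-values weigh a change against the spread between these libraries, moderated by a trend over all genes tested. Depth limits Oas3, with 4 and 7 control reads, most. The coding changes of the 4 genes moved by more than the replicate SD in 2 cases, to 1.94 for Oas3 with a pseudocount of 5 and to 2.08 for Bst2 with quantile normalization. Leader changes moved with the scaling. With TMM factors, quantile normalization, edgeR and DESeq2 they were 1.39, 1.44, 1.41 and 1.39 for Oasl2 and -0.06, 0.00, -0.20 and -0.23 for Isg15. With quantile normalization the ratio changed by -0.03 for Oasl2 and -1.57 for Isg15. Leaving out 1 library gave coding changes of 2.17 to 3.03 for Oas3, 0.92 to 1.61 for Oasl2, 0.93 to 1.85 for Isg15 and 1.54 to 2.08 for Bst2. It gave leader changes of 1.92 to 2.91 for Oasl2 and 0.21 to 1.86 for Isg15, and ratio changes of 0.47 to 1.84 and -1.12 to 0.40.

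Without the 4, the count of higher interferon-stimulated genes, 13 of 40, became 6 with a mean of at least 30, where fewer genes were tested, and 0 to 16 with 1 library left out (lower genes 0 to 3, from 1). Sensing and signalling genes gave 0 higher with a mean of at least 30 and 5 higher with TMM factors, edgeR or scaling to total coding reads, an alternative chosen after seeing the data. Leaving out 1 library gave 0 to 6 higher and 0 to 7 lower. In leaders, 9 of 16 other stimulated genes were higher, beside 44.0% of all leaders tested. The count was 4 with a mean of at least 30, TMM factors, quantile normalization or edgeR, and 2 with DESeq2. In the ratio 0 of 16 passed upwards by limma (1 at an unadjusted p under 0.05), beside 19.4% of all genes tested.

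Over all genes, 488 higher and 864 lower coding calls became 792 and 764 with TMM factors, 900 and 812 with edgeR, 899 higher with scaling to total coding reads, and 490 and 498 with DESeq2. They were 3 to 876 and 8 to 1170 with 1 library left out. The 924 higher leader calls became 396 with a mean of at least 30, 441 with TMM factors, 452 with quantile normalization, 427 with edgeR, 143 with DESeq2, and 179 to 1347 with 1 library left out. The 370 higher ratio calls became 617 without a filter, 171 with a mean of at least 30, 0 with quantile normalization, and 0 to 1170 with 1 library left out. The cause was not tested.

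The replicate numbers are not stated to pair the libraries. Deviations of same-numbered libraries correlated at 0.26 over 4619 genes. With the replicate number as a block, 746 genes were higher in coding reads, 841 in the ratio, 5 sensing and signalling genes were lower, and 3 other stimulated genes were higher in the ratio.

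Of the 22 other genes followed singly, the sign never changed, and 40 of 43 lost calls came without a control library. Ifi27 and Rtp4 lost theirs without knockdown replicate 1, and Ifi204 with 1 read subtracted. All 22 had passed the threshold in these same libraries, so their kept sign adds no support.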
